A study of Mus musculus with 35 samples.

Results

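The genes described here encode the proteins of the cytosolic ribosome. They were chosen by symbol in GENCODE mouse release M21 as the protein-coding genes named Rpl or Rps followed by a digit, together with Rplp0, Rplp1, Rplp2 and Rpsa, without the ribosomal S6 kinases (Rps6k) and Rps19bp1. The rule found 91 of 54119 annotated genes, of which 34 belong to the small and 57 to the large subunit. It uses names only and no measured value.

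RNA came from cells of male C57BL/6JRj mice that were retained on magnetic columns by their ACSA2 antigen, the product of Atp1b2, which marks astrocytes. Mice were 8 to 9 weeks old when they were placed on either of the diets, which they kept for 4 months: a standard chow, abbreviated SC, or food high in fat and sugar, abbreviated HFHS. The hypothalamus (HPT) gave 6 SC and 5 HFHS libraries, the hippocampus (HIP) 5 and 7, and the cortex (CTX) 6 and 6, or 35 in all. Each library pools the tissue of 2 animals, so the SD measures the spread between pools. Cortex cells were sorted on a larger column type than those of the other regions, so region and column cannot be told apart.

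Ribosomal proteins assemble with ribosomal RNA in the nucleolus into a small subunit, which decodes the messenger RNA, and a large subunit, which joins amino acids. Their mRNAs are short, abundant and made in balanced amounts, and nearly all begin at a C followed by a run of pyrimidines, the terminal oligopyrimidine (TOP) tract. Through this tract the mTORC1 kinase and the RNA-binding protein LARP1 control their translation and stability together. Several members also act outside the ribosome. Rpl5 and Rpl11 bind the p53 regulator Mdm2, and Rps6 is the classic phosphorylation target of S6 kinase.

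The bases around the start sites were read from the RefSeq promoter table (build GRCm38.p6), which held 65 of the 91 genes. In the 20 bases on each side of the start, 35 of those 65 genes (53.8%) had a C followed by further pyrimidines to at least 7 bases in a row on the transcribed strand, against 21.8% of 16457 other protein-coding genes. The motif CTTTC stood in the same window of 20 genes (30.8%) on the transcribed strand and of 23 (35.4%) on either strand, against 5.80% and 10.5% of the others. The motif can lie inside the longer run, and a match is a description of letters. Below are 12 bases before and 18 from the RefSeq start of the 6 genes in the table with the smallest p in the cortex diet comparison, and of Rpl7l1, Rpl22l1 and Rpl4, which departed from the other members or are paralogs. Runs of 5 or more pyrimidines are in capitals, and none were found in the windows of Rpl37a, Rpl9 and Rpl7l1.
Rps2 (chr17:24720051-24720080, + strand): cagtcgagatctcgcgCTTCTTggagcact
Rps15a (chr7:118116130-118116159, - strand): TCTTTCTgccaTCTTCCCTCgccggtgagt
Rps27rt (chr9:114982722-114982751, - strand): acttaTCCCTTgCTTTCCggcggtgacgac
Rpl37a (chr1:72711248-72711277, + strand): cgctcgccggtctaaaaccgcgcatgcgca
Rpl9 (chr5:65391414-65391443, - strand): cagggccctgacggattacaagaacgtgat
Rps10 (chr17:27635227-27635256, - strand): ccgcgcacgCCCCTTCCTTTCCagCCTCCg
Rpl7l1 (chr17:46782639-46782668, - strand): aggctgcgcaagcgcagtagctgaagcacc
Rpl22l1 (chr3:28805496-28805525, + strand): cggcgcaagcccgTTCTCTTCCCacggctg
Rpl4 (chr9:64173375-64173404, + strand): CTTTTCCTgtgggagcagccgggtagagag
Annotated starts can lie some bases from the true one, which moves the run within or out of the window.

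Total estimated counts lay between 47578560 and 65982495 per library. Markers of other cells were present throughout: the summed level of 8 oligodendrocyte markers was 22577 to 141271 CPM (counts scaled to library size by TMM, expressed as CPM) per library, that of 10 astrocyte markers 19714 to 48664 in cortex, 3050 to 20195 in hypothalamus and 1635 to 14264 in hippocampus. All 10 astrocyte markers were detected in every library. Outside cortex the oligodendrocyte sum (49060 to 141271 CPM) exceeded the astrocyte sum in every library. In cortex it did so in some libraries, such as SC 3 (81277 against 27204), and not in others, such as SC 2 (27892 against 38000). The 6 choroid plexus markers summed to 86.7 to 21566 CPM in hippocampus. In such mixtures fewer cells of a type and less RNA per cell cannot be told apart. Among the 35 libraries, the cortex libraries numbered 6 stood apart by short transcripts. Their count-weighted mean transcript length was 1924 bases (SC 6) and 2180 bases (HFHS 6), against 2484 to 2984 in the others. Mitochondrial transcripts held 10.9% and 8.01% of their counts, against 1.18% to 7.87% in the others, so HFHS 6 lay close to CTX HFHS 2 (7.87%). The main cortex results are therefore given with and without these libraries. Region fits split by diet, the correlation with transcript length, the paralog comparisons, the non-coding share and some list medians include them.

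TPM values, which correct for transcript length and library size, gave the levels of the members. The most abundant was Rpl13 with a mean of 778 TPM over all libraries (range 420 to 1269), and Rps29 with 697 TPM, Rpl41 with 646 TPM and Rps14 with 558 TPM were also among the highest. Rpl13 is a large-subunit protein, Rps29 is a small zinc-binding protein of the small subunit, and Rpl41 is the shortest protein of the ribosome. The ranges over libraries of these 4 genes overlapped, so their order is that of the means. Rplp0, Rplp1 and Rplp2 form the stalk that recruits elongation factors, and Rpsa lies on the outside of the small subunit. Summed over members, the small subunit reached 0.711 ± 0.026 (SD, n = 35) of the TPM of the large one. That ratio was 0.812 in HPT HFHS 3 and lay between 0.669 and 0.739 in all other libraries.

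At the low end were genes of testis- or muscle-type paralogs and of processed copies that the annotation calls protein-coding. Rpl10l and Rpl36-ps4 had no estimated counts in any library, Rpl9-ps1 was at 0 in 32 libraries, Rpl9-ps6 in 27 and Rpl39l in 24. Rpl3l, a muscle paralog of Rpl3, had a mean of 0.195 TPM and was at 0 in 11 libraries. Rpl36a-ps1 had 0.951 TPM. The other 84 members had a mean of at least 9.84 TPM. Rpl12 (9.84 TPM) and Rpl5 (12.3 TPM) were the lowest of them, and both have near-identical processed copies to which more reads were assigned. Copies hold 85.4% of the counts of Rpl5 and its copies together, mostly Gm15500, and 72.2% of those of Rpl12, mostly Gm10275. In all, 972 annotated genes matched the coding sequence of a member at 90% identity over 80% of its length, 954 of them pseudogenes, and 80 members had at least 1 such copy. The copies held 4.69% to 6.65% of the joint counts per library, so levels of single members with copies are uncertain.

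The 91 genes together held 0.310% to 1.34% of the estimated counts of a library. In cortex the SC libraries numbered 1 to 6 had shares of 0.513%, 0.525%, 0.642%, 0.561%, 0.589% and 1.34%, and the HFHS libraries 0.394%, 0.503%, 0.310%, 0.382%, 0.378% and 0.765%. Within each diet the library numbered 6 was the highest. Leaving those 2 out, every SC share was above every HFHS share, with means of 0.566% ± 0.052 (SD, n = 5) and 0.393% ± 0.069 (n = 5); with them the means were 0.695% ± 0.319 (n = 6) and 0.455% ± 0.164 (n = 6) and the groups overlapped. In hypothalamus the shares were 0.446% to 0.798% on SC (median 0.567%) and 0.434% to 0.990% on HFHS. The HFHS values there were 0.694%, 0.525%, 0.990%, 0.434% and 0.519%, so library 3 lay above the SC range and the other 4 within or just below it. In hippocampus the shares were 0.353% to 0.496% on SC and 0.360% to 0.596% on HFHS, and the diets overlapped. By TPM the same 91 genes made up 1.40% ± 0.24 of cortex HFHS and 2.00% ± 0.38 of cortex SC libraries (n = 6 each; 1.32% ± 0.16 and 1.85% ± 0.15 without the libraries numbered 6, n = 5 each).

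**Figure D1:**
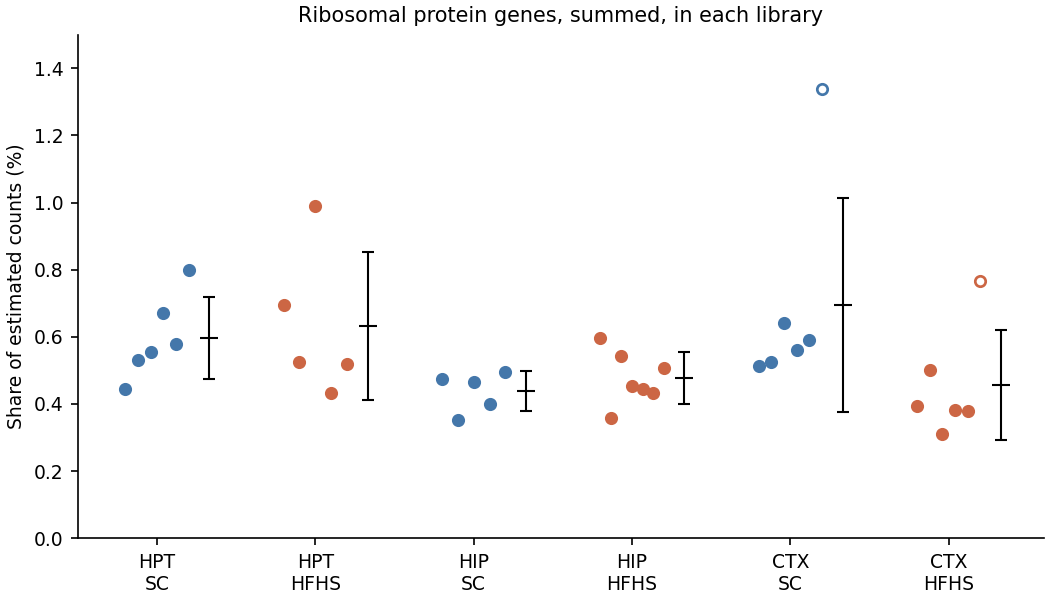
Share of the estimated counts of each library (vertical axis, %) held by the 91 ribosomal protein genes, by region and diet (horizontal axis). Points are libraries, blue for SC and orange for HFHS, the black bars are the mean and SD of all libraries of the group, and open points mark the cortex libraries numbered 6 at 1.34% and 0.765%. The other 5 cortex SC points lie above the other 5 HFHS points.

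The members moved together from library to library. After removal of each group's mean, the median correlation of log2 CPM between pairs of the 84 expressed members was 0.91 over 35 libraries, and 96.6% of 3486 pairs exceeded 0.5. These points share depth, scaling and RNA preparation, and the cortex libraries numbered 6 are among them. Rpl26, Rpl19 and Rpl11 followed the median of the tested members in each library most closely, with an SD of their deviation from it of 0.12, 0.13 and 0.13 log2 units. The processed copy Rps12-ps3 was listed at 0 in CTX HFHS 3 and in no other library, and it is left aside here. Among the other members with over 10 TPM, those that departed most were Rpl7l1 (0.55), Rpl10 (0.40) and Rpl5 (0.40), ahead of Rpl4 (0.36), Rpl31 (0.36) and Rps3a1 (0.36). Rpl7l1, a paralog of Rpl7 with a long mRNA of 2606 bases, had a median correlation of 0.32 with the others.

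**Figure D2:**
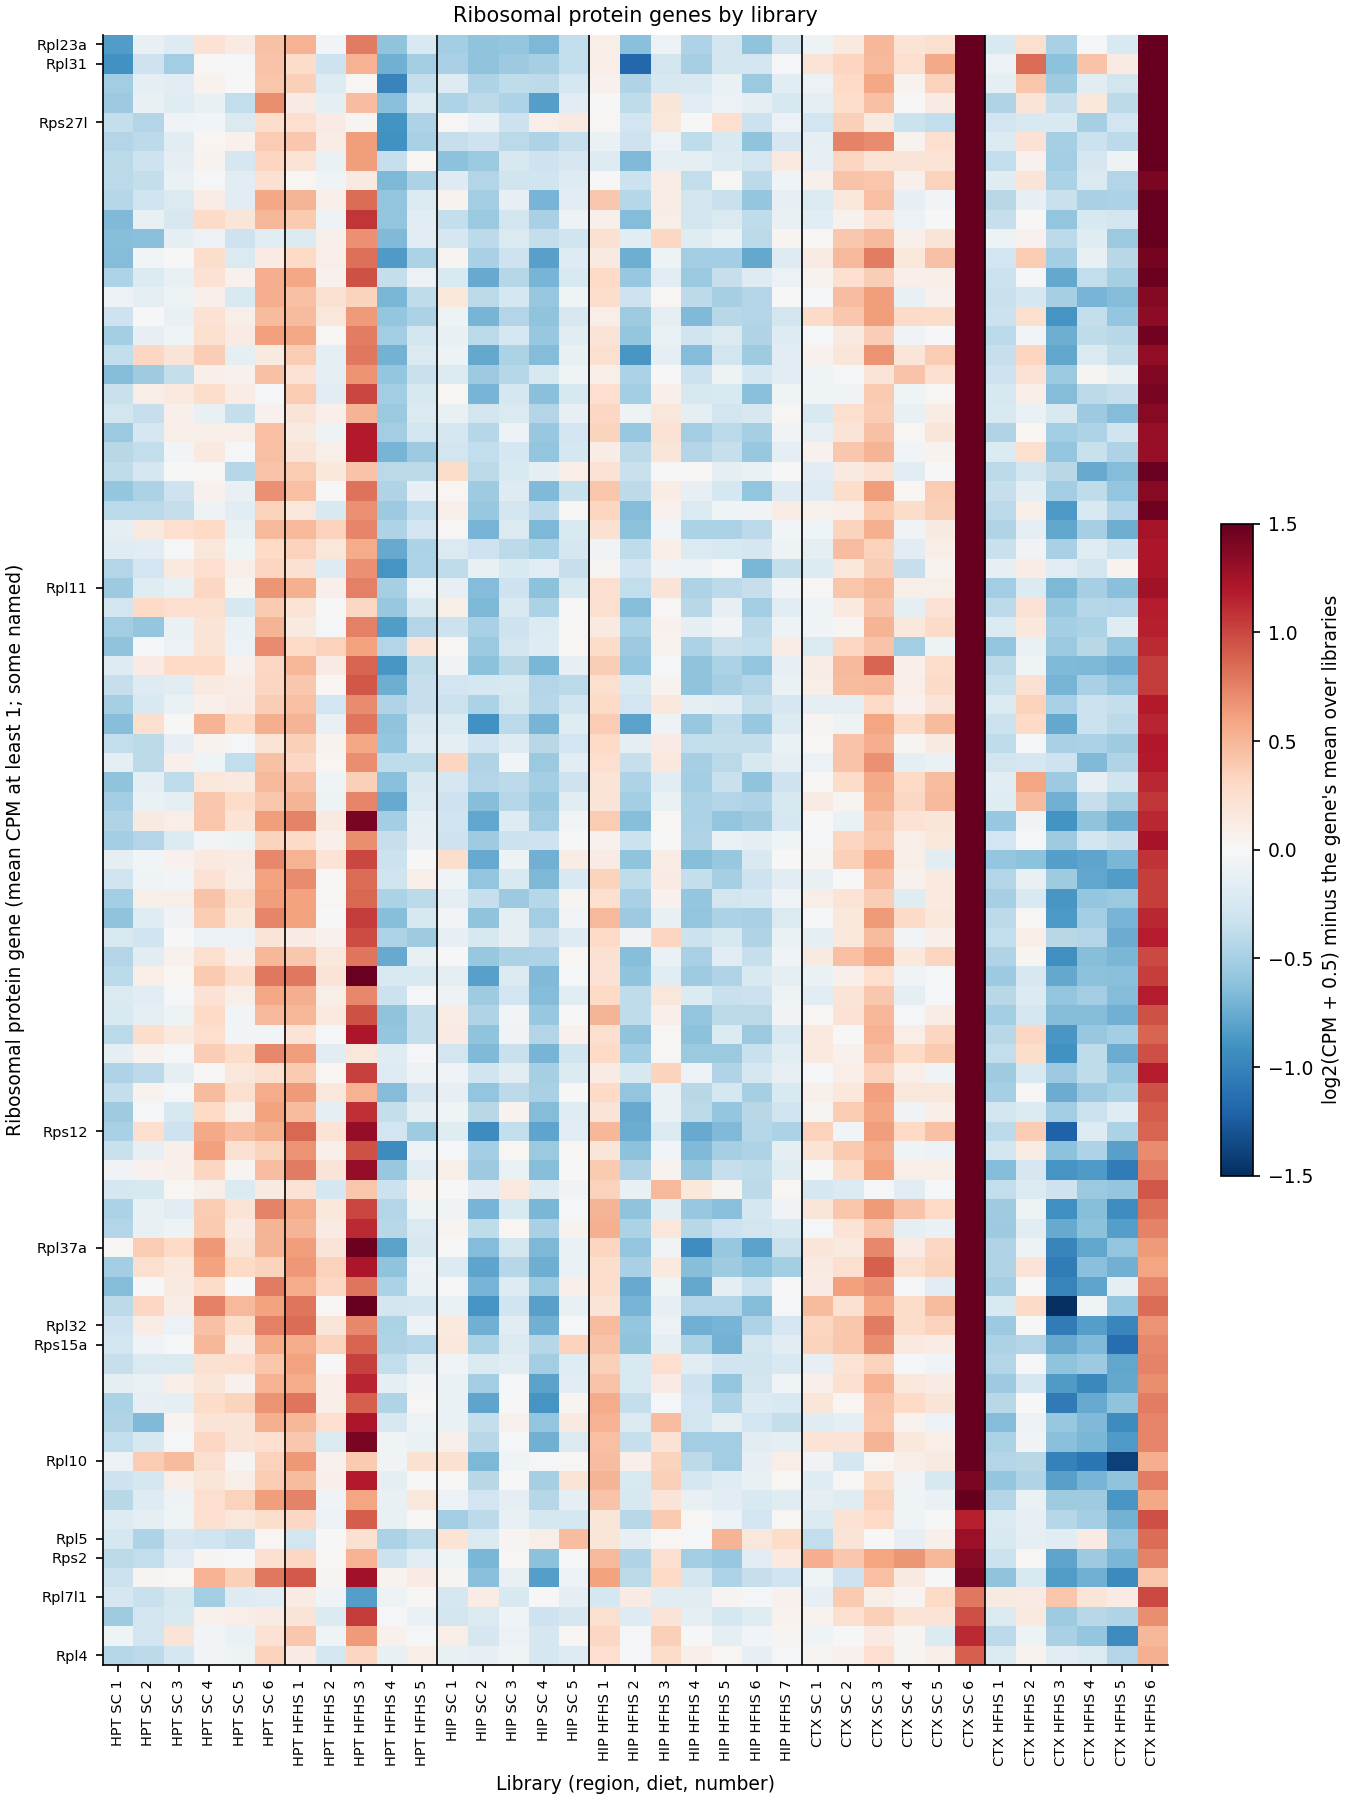
Log2(CPM + 0.5) of each ribosomal protein gene minus its mean over all libraries (colour, limited at 1.5 either way) for the 84 genes with a mean of at least 1 CPM (rows) in the 35 libraries (columns), with rows ordered by their level in the cortex libraries numbered 6 and 13 of them named. Both of those columns are red for every gene, HPT HFHS 3 is red for nearly all, and the cortex HFHS columns 1, 3, 4 and 5 are mostly blue.

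The diet comparison asks whether HFHS changed the level of these genes in each region. In no region did a member pass an adjusted p of 0.05 in edgeR's quasi-likelihood test, and no gene of any kind did (percent called 0 of 19272, 19036 and 17844 genes in HPT, HIP and CTX). In hypothalamus 76 of 84 tested members had a positive log2 difference, HFHS minus SC, with a median of 0.17 and a range of -0.16 to 0.41. In hippocampus 74 of 84 were positive with a median of 0.12. The medians of all genes tested were -0.01 and 0.00. At an unadjusted p under 0.05, members counted 0 in either region, while 1639 genes (8.5%) in hypothalamus and 984 (5.17%) in hippocampus reached it, and DESeq2 called 87 (0.451%) and 15 (0.0788%) genes, none of them members. Without HPT HFHS 3 the hypothalamic median turned to -0.07 (-0.025 for all genes). With limma on log2(TPM + 1) it was -0.01, where that of all genes was -0.09. With mean transcript length in the model the hippocampal median turned to -0.03.

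In cortex the differences were negative. Of 85 members tested, 83 had a negative log2 difference, HFHS minus SC, with a median of -0.78 against -0.02 for all genes. All 34 small-subunit members were negative (median -0.79) and 49 of 51 large-subunit members (median -0.72). The exceptions were Rpl7l1 (0.09) and Rpl3l (0.54). At an unadjusted p under 0.05 there were 18 of 85 members, against 9.26% of all genes (1652 of 17844, 5.03% lower). No adjusted p passed. DESeq2 called 504 genes (2.82%) and no member. The median rested on both libraries numbered 6: it was -0.24 without CTX SC 6 alone, with no member called beside 0.776% of all genes, and -1.20 without CTX HFHS 6 alone, with 1 member called beside 0.709% of all genes.

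Without the libraries numbered 6, 84 of 85 members were negative, the median was -0.53 and 15 members passed, all lower on HFHS. Percent called was 2.86 in that fit (515 of 17998 genes, 1.71 of them lower). They included Rpl7, Rpl8, Rpl9, Rpl11, Rpl32, Rpl36, Rpl37a, Rpl41, Rps2, Rps4x, Rps10, Rps13, Rps15a and Rpsa. In the same 10 libraries, 32 of 85 members (37.6%) had every HFHS value below every SC value, against 3.84% of all genes. No member had the reverse, which 2.61% of all genes had, and with all 12 libraries no member separated the groups in either direction.

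Rps2, at the messenger entry channel, and Rps15a are small-subunit proteins, and Rpl32 belongs to the large subunit. Rps2 (chr17:24718116-24721929 in GRCm38) measured 137, 125, 142, 149, 133 and 243 CPM in cortex SC libraries 1 to 6, and 74.7, 95.8, 53.9, 64.1, 58.2 and 157 CPM in the HFHS libraries. Libraries 1 to 5 of the diets did not overlap, and HFHS 6 was above 5 SC values. Its log2 difference was -0.88 ± 0.28 (SE; adjusted p = 0.285, edgeR) with all libraries and -0.96 ± 0.16 (adjusted p = 0.0189) without those numbered 6.

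Rpl32 (chr6:115805505-115808747) measured 63.0, 66.8, 86.2, 61.0, 63.7 and 207 CPM on SC and 34.1, 50.1, 23.9, 28.2, 25.2 and 80.5 CPM on HFHS. Again libraries 1 to 5 did not overlap. The log2 difference was -1.17 ± 0.39 (adjusted p = 0.299, edgeR) with all libraries and -1.05 ± 0.21 (adjusted p = 0.0256) without 6. Rps15a (chr7:118104372-118116188) measured 25.0, 26.5, 32.4, 22.0, 21.4 and 75.5 CPM on SC against 14.1, 14.5, 11.6, 12.3, 8.71 and 32.9 CPM on HFHS. Its difference was -1.10 ± 0.38 (adjusted p = 0.326, edgeR), or -1.03 ± 0.18 (adjusted p = 0.0208) without 6. HFHS 6 was above 4 or 5 of the SC values in both genes.

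Rps27rt, a processed copy of Rps27 that is itself annotated as coding, and Rpl37a, a small zinc-binding protein of the large subunit, completed the 5 members with the smallest p. Rps27rt measured 27.8, 30.4, 47.9, 30.2, 32.1 and 118 CPM on SC and 18.5, 29.1, 12.0, 16.3, 15.2 and 38.4 CPM on HFHS, and its groups overlapped even in libraries 1 to 5, where SC 1 was below HFHS 2. It did not pass without 6 (-0.86 ± 0.24, adjusted p = 0.0796, edgeR), whereas Rpl37a did (-0.84 ± 0.19, adjusted p = 0.0407). Reads of Rps27rt and Rps27 are hard to separate.

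**Figure D3:**
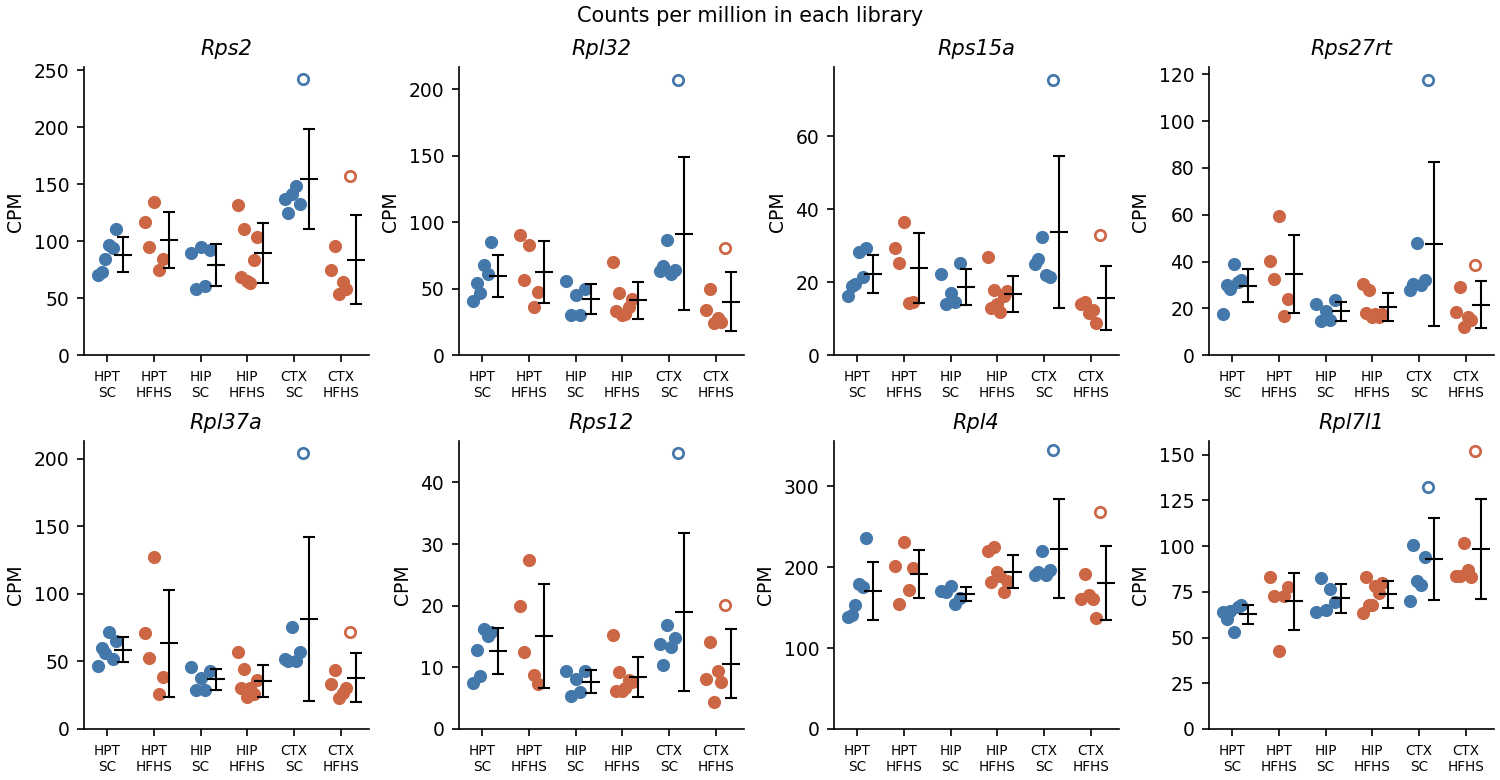
CPM (vertical axes) of 8 ribosomal protein genes in every library, by region and diet. Points are libraries, blue for SC and orange for HFHS, bars are mean and SD of all libraries of a group, and open points are the cortex libraries numbered 6. In cortex, libraries 1 to 5 of Rps2, Rpl32, Rps15a and Rpl37a do not overlap between diets, while those of Rps27rt, Rps12, Rpl4 and Rpl7l1 do.

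Among members with named roles, the stalk proteins had differences without the libraries numbered 6 of -0.43 ± 0.15 (Rplp0), -0.69 ± 0.19 (Rplp1) and -0.68 ± 0.17 (Rplp2), none past the threshold. Rpsa passed with -0.73 ± 0.16. The Mdm2-binding Rpl11 passed with -0.72 ± 0.14, while Rpl5 was -0.13 ± 0.18. Rps6, the S6 kinase target, was -0.44 ± 0.16 and Rps27a, which is made fused to ubiquitin, -0.62 ± 0.16; neither passed. Rps4x, the X-linked form of Rps4, passed with -0.53 ± 0.12. Rpl3 (-0.47 ± 0.15), at the peptidyl transferase centre, and Rps19 (-0.49 ± 0.22), mutated in Diamond-Blackfan anaemia, did not.

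Transcript length moved with the cortex result. Across the 85 members the all-library log2 difference correlated with the length of the main transcript (Pearson 0.44, Spearman 0.44, across genes that share libraries), shorter mRNAs being lower on HFHS. The correlation was not particular to cortex. Across 84 members it was 0.30 (Pearson) and 0.39 (Spearman) in hypothalamus and 0.23 and 0.43 in hippocampus, where the member medians were positive. The mean transcript length of a library was 2625 to 2844 bases in SC 1 to 5 and 2720 to 2963 in HFHS 1 to 5, and the plot of share against length shows the cortex libraries numbered 6 with the shortest transcripts and the largest shares of their groups. With the mean transcript length as a covariate in all 12 libraries the median was -0.21, and 6 members passed (Rpl8, Rpl9, Rpl32, Rps2, Rps10 and Rps15a), all of them among the 15 above, with 2.58 percent called. With the covariate and without the libraries numbered 6 together, an alternative chosen after the data were seen, the median was -0.18, 72 of 85 members were negative, and no member and no other gene passed.

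The summed levels of all 12 marker lists overlapped between the cortex diets without the libraries numbered 6. The 8 oligodendrocyte markers summed to 27892 to 81277 CPM on SC and 28981 to 93993 on HFHS, and the 10 astrocyte markers to 20228 to 38000 and 19714 to 32864. The 6 endothelial markers summed to 118 to 3036 and 189 to 1144 CPM. The 6 choroid plexus markers summed to 218 to 3195 and 22.5 to 2246 CPM. Their part in the result was not tested.

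**Figure D4:**
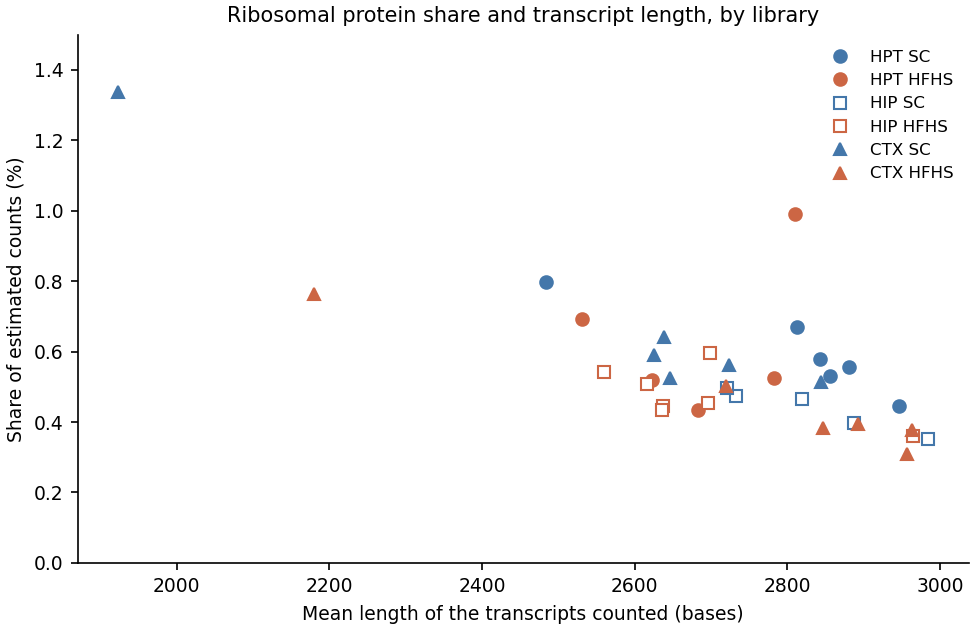
Share of estimated counts held by the 91 genes (vertical axis, %) against the count-weighted mean length of the transcripts counted (horizontal axis, bases) in each of 35 libraries, with circles for HPT, open squares for HIP and triangles for CTX, blue for SC and orange for HFHS. The cortex libraries numbered 6 lie alone at the left at 1924 and 2180 bases, and HPT HFHS 3 lies above the remaining points at 2810 bases with 0.990%.

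The interaction contrast asks whether the diet difference itself differed between regions. It called no gene for any pair of regions (percent called 0 of 21574). All 87 members tested were positive for hypothalamus against cortex, with a median of 1.01, and 84 of 87 for hippocampus against cortex, with a median of 0.91, beside 0.06 and 0.08 for all genes. Between hypothalamus and hippocampus the median was 0.08. The first 2 contrasts share the cortex libraries, and their values are given side by side only. Rps2 had the smallest p for hypothalamus against cortex (1.12 ± 0.34, adjusted p = 0.232, edgeR). At an unadjusted p under 0.05 there were 40 of 87 members for hypothalamus against cortex, beside 11.6% of all genes. For hippocampus against cortex there were 29 of 87, beside 9.3%, and for hypothalamus against hippocampus 0, beside 2.01%. In the same order DESeq2 called 141, 23 and 4 genes. Without the libraries numbered 6 the medians for the 2 cortex contrasts were 0.76 and 0.67, and no member passed. Without CTX HFHS 6 alone 3 members passed for hypothalamus against cortex (0.836 percent called), and without the 3 libraries of shortest transcripts (both cortex libraries numbered 6 and HPT SC 6) 15 did (2.23 percent called).

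Between regions, averaged over diets, most members had negative differences outside cortex, and most of the calls among them were lost without the cortex libraries numbered 6. For hippocampus against cortex, 54 of 87 members passed, all lower in hippocampus, with a median of -0.65 (0.06 for all genes) where percent called was 42.8 (20.4 lower and 22.4 higher). For hypothalamus against cortex, 14 passed, all lower in hypothalamus, with a median of -0.29 where percent called was 43.4 (21.2 lower and 22.2 higher). Of these 14 members, 12 were also among the 54.

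Among members past the threshold, those with the largest differences for hippocampus against cortex were Rpl31 (-1.30 ± 0.27), Rpl23a (-1.21 ± 0.29), Rps21 (-1.04 ± 0.26), Rpl35 (-1.03 ± 0.27), Rpl12 (-1.02 ± 0.29), Rps14 (-1.02 ± 0.26), Rplp1 (-0.95 ± 0.25), Rps29 (-0.94 ± 0.26), Rpl10a (-0.92 ± 0.25) and Rpl13a (-0.92 ± 0.22), with adjusted p between 0.000257 and 0.00445 (edgeR). Rpl31, Rpl23a and Rpl35 surround the exit of the peptide tunnel of the large subunit, and Rpl13a is also released to repress translation after interferon. For hypothalamus against cortex the largest among those past the threshold were Rpl3l (-2.68 ± 0.89, at counts near 0), Rpl31 (-1.02 ± 0.28), Rpl35 (-0.85 ± 0.27), Rps15 (-0.82 ± 0.25), Rpl7a (-0.78 ± 0.25) and Rpl12 (-0.77 ± 0.29).

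Without the libraries numbered 6 the median for hypothalamus against cortex turned to 0.16, with 14 members higher in hypothalamus and 3 lower (Rpl3l, Rpl31 and Rpl7l1), where 43.3 percent was called (22.2 higher and 21.1 lower). Of the 14 called higher, the largest differences were those of Rps3a1 (0.66 ± 0.17), Rpl10 (0.62 ± 0.14) and Rpl30 (0.60 ± 0.17). Of the 14 members called with all libraries, 3 were called again. The median for hippocampus against cortex was then -0.17, with 13 lower and 2 higher (Rpl6 and Rpl10), where 41.7 percent was called (23.2 higher and 18.5 lower), and 13 of the 54 were called again. The direction for hypothalamus against cortex also turned on the TPM scale (median 0.26 with 0.24 for all genes, 35 members higher and 2 lower, 47.1 percent called) and with transcript length in the model (median 0.10, 9 higher and 5 lower, 46.2 percent called).

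Split by diet, nearly all members had lower estimates outside cortex on SC, in fits that kept SC 6 and were not repeated without it. As a share of counts, members held 0.597% ± 0.122 in hypothalamus SC and 0.437% ± 0.060 in hippocampus SC. Cortex SC held 0.695% ± 0.319, or 0.566% ± 0.052 without SC 6. By TPM hypothalamus SC held 2.002%, and cortex SC 1.995%, or 1.850% without SC 6. In the SC fits 34 members were lower in hypothalamus (median -0.77, percent called 36.1) and 69 were lower in hippocampus (median -1.10, percent called 30.8), both with SC 6. On HFHS, 1 was higher and 1 lower in hypothalamus (median 0.17, percent called 23.9) and 1 was lower in hippocampus (median -0.18, percent called 24.2).

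Hypothalamus against hippocampus does not compare cortex, although the cortex libraries were part of the same model. Here 79 of 87 members had positive differences, higher in hypothalamus, with a median of 0.33 (0.01 for all genes). The median lay between 0.21 and 0.41 when any 1 of the 23 hypothalamus and hippocampus libraries was left out. Members that passed were Rps12 (0.78 ± 0.26, adjusted p = 0.0308, edgeR), Rpl37a (0.75 ± 0.25, 0.0277), Rps27rt (0.70 ± 0.24, 0.0335) and Rps3a1 (0.60 ± 0.21, 0.0359). These 4 of 87 stand beside 22.2 percent called over all genes (12.5 higher and 9.64 lower), and the number called higher was 0 to 6 when 1 of those libraries was left out. Rps12 measured 7.51, 12.9, 8.56, 16.2, 15.0 and 15.8 CPM in hypothalamus SC and 9.45, 5.35, 8.19, 5.99 and 9.49 CPM in hippocampus SC, with overlap. On HFHS it measured 19.9, 12.5, 27.5, 8.71 and 7.28 CPM in hypothalamus and 6.16 to 15.3 CPM (median 7.58) in hippocampus, again with overlap. On the TPM scale 41 members were higher in hypothalamus and 1 lower (24.2 percent called), and with transcript length in the model 35 and 1 (29.9 percent called).

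**Figure D5:**
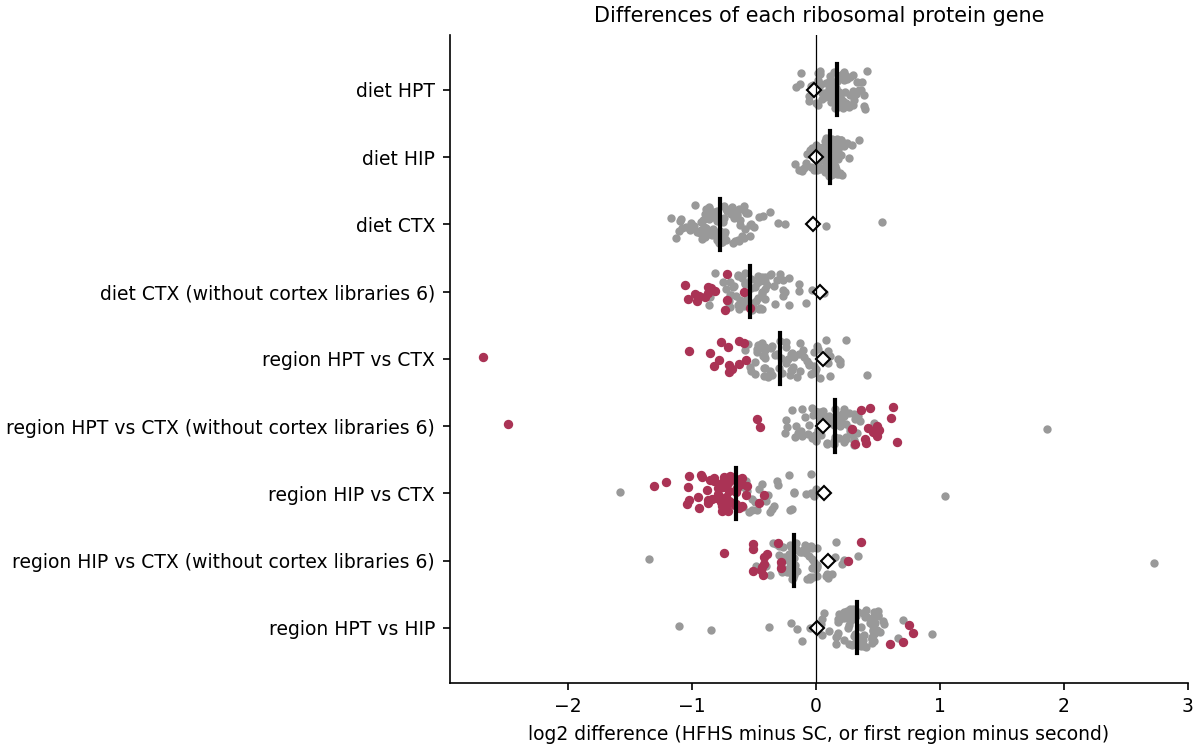
Log2 difference (horizontal axis) of each tested ribosomal protein gene in the diet and region comparisons (rows). Red points passed an adjusted p of 0.05, grey points did not, the black bar is the median of the members and the open diamond that of all genes. The diet medians are 0.17, 0.12 and -0.78 in HPT, HIP and CTX, and the row for hypothalamus against cortex changes from a median of -0.29 to 0.16 without the cortex libraries numbered 6.

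Rpl7l1 kept apart from the other members. It measured 70.3, 101, 81.1, 78.5, 94.2 and 132 CPM in cortex SC and 83.6, 83.4, 102, 86.7, 83.4 and 152 CPM in cortex HFHS, and the ranges overlapped (log2 difference 0.09 ± 0.22, adjusted p = 0.95, edgeR). It was lower in both other regions than in cortex (-0.56 ± 0.12, adjusted p = 0.000213, in hypothalamus and -0.42 ± 0.12, adjusted p = 0.00408, in hippocampus), also without the libraries numbered 6 (-0.45 ± 0.10 and -0.28 ± 0.09). The ratio of its TPM to that of Rpl7 was 0.326, 0.489, 0.271, 0.325, 0.452 and 0.205 in cortex SC and 0.534, 0.476, 0.773, 0.568, 0.621 and 0.459 in cortex HFHS, where 2 HFHS values lay below the highest SC value. In the other 4 groups the ratio lay between 0.0815 and 0.440. Rpl22l1, which can replace Rpl22 in the ribosome, had 2.02 ± 0.45 (n = 35) times the TPM of Rpl22, with 2.02 ± 0.52 in cortex SC and 2.50 ± 0.48 in cortex HFHS (n = 6 each). Rps27l, a p53-induced paralog, had 0.834 ± 0.226 times the TPM of Rps27 in cortex SC and 1.15 ± 0.38 in cortex HFHS. Rpl36al had 1.62 ± 0.12 and 1.97 ± 0.42 times the TPM of Rpl36a in the same groups. The ratio of Rps27rt to Rps27 went the other way, with 1.71 ± 0.27 in cortex SC and 1.42 ± 0.19 in cortex HFHS. Each of these ratios overlapped between the diets.

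Transcripts annotated as non-coding held 4.50% to 6.53% of the members' counts per library. Over all libraries the share was largest in Rps16 (42.5%, all of it in retained-intron transcripts) and Rpl13a (37.5%) among expressed members. By group the mean was lowest in cortex SC (5.03% ± 0.41) and highest in cortex HFHS (5.81% ± 0.44, n = 6 each), and the 2 groups overlapped.

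Other genes of translation were compared from lists, with the percent called as given above. Of 22 further TOP mRNAs, among them the elongation factors Eef1a1 and Eef1g, all had negative differences in cortex (median -0.51), none of them called. Without the libraries numbered 6, 21 were negative (median -0.41) and Eef1a1 (-0.66 ± 0.13, adjusted p = 0.0268, edgeR) and Eef1g (-0.54 ± 0.13, 0.0495) passed. In hypothalamus 20 and in hippocampus 21 of the 22 were positive (medians 0.22 and 0.13), none called. The 78 proteins of the mitochondrial ribosome, encoded in the nucleus, had 71 negative differences in cortex with a median of -0.34, and -0.16 without the libraries numbered 6, where Mrpl52 alone passed (-1.001 ± 0.207). With transcript length in the model their median was 0.24 with 2 called higher, whereas that of the ribosomal protein genes was -0.21. High levels in the cortex libraries numbered 6 were not particular to the ribosomal protein genes. The mitochondrial ribosome genes summed to 14559 CPM in SC 6, against 2613 to 4147 in SC 1 to 5. In HFHS 6 they summed to 10189 CPM, against 2712 to 3018 in HFHS 1 to 5. The proteasome genes reached 13040 CPM in SC 6 (others 3676 to 5133) and 10426 CPM in HFHS 6 (3986 to 4691).

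The 29 initiation factors had a cortex diet median of 0.03, the 28 ribosome biogenesis genes 0.08, the 40 proteasome genes -0.18 (39 tested), and the 24 genes of mTORC1 and LARP1 0.05, none with a call. Without the libraries numbered 6, Mtor (1.10 ± 0.19, adjusted p = 0.0195, edgeR), its partner Rptor (0.88 ± 0.21, 0.0464), the inhibitor subunit Tsc2 (0.70 ± 0.16, 0.039) and Larp4 (0.74 ± 0.14, 0.0224) were higher on HFHS. In the same fit the stress transcription factor Atf4 was lower (-1.01 ± 0.20, 0.0256) and Heatr1, a nucleolar factor of ribosomal RNA transcription, higher (1.38 ± 0.28, 0.0267). The proteasome subunit Psmd11 was higher too (0.72 ± 0.14, 0.0256). With all 12 cortex libraries and no covariate none of these genes passed, Mtor having the smallest adjusted p among them (0.97 ± 0.20, adjusted p = 0.0854, edgeR). With all 12 and transcript length as covariate, 3 genes of the mTORC1 and LARP1 list, 2 of the proteasome list and 1 initiation factor were called higher, and 1 of 16 stress genes lower. With that covariate and without the libraries numbered 6 together, 0 of 17998 genes passed, so every call named here was lost.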

How the data were processed

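RNA-seq libraries of ACSA2-sorted cells (SMART-Seq v4, which does not keep strand) were quantified by the authors with Salmon on GRCm38, per the submitters' processing notes; no versions are given in the sources used here. The deposited files give estimated counts and TPM per transcript. Both were summed per gene through GENCODE M21, with 139852 of 140948 transcripts matched by identifier and 0.214% to 0.535% of counts unmatched. Members and lists were chosen with earlier results of these data known.

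Rounded expected counts were tested with edgeR 4.0.16 (quasi-likelihood, robust, TMM scaling, filterByExpr; R 4.3.3) and Benjamini-Hochberg adjustment over all genes at 0.05. Diet was tested within each region, and region and interaction in 1 model of 6 groups. DESeq2 1.42.0 and limma 3.58.1 on log2(TPM + 1) were alternatives, with other scalings and filters, a replicate block, transcript length as covariate and each library left out. Scripts were tested on simulated data. For hypothalamus against cortex, 52% of genes with a true log2 difference of 1 were called, and 93% at 2. For the cortex diet comparison these were 6% and 57%, so a missing call there does not show that a difference is absent. Errors are SE for log2 differences and SD for levels. Between regions, the sorting column cannot be told apart from the tissue. Genes named are, per comparison, up to 10 members past the threshold with the largest difference or the 5 with the smallest p, a fixed set of members and paralogs, and up to 4 genes of each other list; others, such as Rpl4, Rps12-ps3 and the members listed by level, isoforms or copies, were chosen after their values were seen. Values of some members are not reported here.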

Additional observations from a re-analysis of the deposited data

Results flagged for a closer look

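In 96 groups of 5 to 7 libraries, 17 had a highest or lowest library separated from the rest by more than Dixon's 95% limit. Chance gives about 1 in 20 groups, and the genes share libraries. CTX SC 6 accounts for 8: it held 1.34% of counts in members (others 0.513% to 0.642%), and it measured 243 CPM for Rps2 (others 125 to 149), 207 CPM for Rpl32 (61.0 to 86.2), 75.5 CPM for Rps15a (21.4 to 32.4), 118 CPM for Rps27rt (27.8 to 47.9), 204 CPM for Rpl37a (50.1 to 75.6), 44.7 CPM for Rps12 (10.4 to 16.8) and 345 CPM for Rpl4 (191 to 220). CTX HFHS 6 measured 32.9 CPM for Rps15a (8.71 to 14.5) and 152 CPM for Rpl7l1 (83.4 to 102). These libraries have the shortest transcripts, whose part in the result was not tested beyond the covariate.

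HIP HFHS 1 measured 69.7 CPM for Rpl32 (others 30.2 to 47.1), 26.9 CPM for Rps15a (11.9 to 17.8) and 15.3 CPM for Rps12 (6.16 to 9.24). HPT HFHS 3 had a small to large subunit TPM ratio of 0.812 (0.669 to 0.709) and 42.7 CPM for Rpl7l1 (72.6 to 83.1), with 6.45% mitochondrial counts. The Rpl22l1 to Rpl22 ratio was 2.15 in HPT SC 6 (1.47 to 1.71), and the Rpl36al to Rpl36a ratio was 2.55 in HIP HFHS 4 (1.64 to 2.03).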

How the results depend on the processing

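In the cortex diet comparison, members called lower were 6 with mean transcript length as covariate (median -0.21), 26 with a replicate block and 15 without the libraries numbered 6; with that and the covariate the median was -0.18. Leaving out 1 library gave 0 to 1 called and medians of -1.20 to -0.24. Genes called were 504 with DESeq2, 19 with length-scaled TPM, 32 with no filter, 461 with the covariate, 412 with the block (2.31%; also 3 genes of the mTORC1 and LARP1 list, 2 of ribosome biogenesis and 1 of the proteasome higher, and 3 other TOP mRNAs, 2 initiation factors, 2 mitochondrial ribosome genes and 1 stress gene lower) and 515 without the libraries numbered 6. In hypothalamus DESeq2 called 87 genes and the fit without the 3 shortest libraries 8; in hippocampus DESeq2 called 15.

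For hypothalamus against cortex, higher and lower members were 1 and 1 on HFHS alone (median 0.17), 34 lower on SC alone (-0.77), 35 and 2 with limma on TPM (0.26), 9 and 5 with the covariate (0.10), 8 lower with no filter, 2 and 4 with the block, 9 and 4 without the 3 shortest libraries (0.11) and 14 and 3 without the libraries numbered 6 (0.16). Over all genes those fits called 23.9%, 36.1%, 47.1%, 46.2%, 28.9%, 43.6%, 43.4% and 43.3%, in the same order. Rps27l turned to 0.046 with limma and to 0.0005 without the libraries numbered 6. For hippocampus against cortex they were 1 lower on HFHS alone (-0.18, with Rps2 at 0.0788 and Rpl32 at 0.0243), a median of -1.10 on SC alone, 7 and 9 with limma (-0.0865), 19 lower with the covariate (-0.26), 17 lower with the block, 2 and 15 without the 3 shortest (-0.17) and 2 and 13 without the libraries numbered 6 (-0.17). Over all genes those fits called 24.2%, 30.8%, 45.2%, 44.7%, 41.9%, 42.8% and 41.7%. For hypothalamus against hippocampus they were 0 on either diet alone and with upper-quartile scaling, 41 and 1 with limma, 35 and 1 with the covariate, and 19 and 1 without the 3 shortest, where 6.42% (HFHS), 10% (SC), 23%, 24.2%, 29.9% and 29.7% of all genes were called.

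The interaction of hypothalamus against cortex had medians of 0.48 with limma and 0.31 with the covariate, 1 member higher with the block and 15 without the 3 shortest; hippocampus against cortex had 0.49 and 0.16. Genes called for the first were 141 with DESeq2, 299 with the block, 475 without the 3 shortest and 38 without the libraries numbered 6. Leaving out 1 library gave, for hypothalamus against cortex, 0 to 2 higher and 4 to 19 lower; for hippocampus against cortex 19 to 60 lower; for hypothalamus against hippocampus 0 to 6 higher and 0 to 1 lower; and for the interactions 0 to 3 higher with medians of 0.37 to 1.40 and 0.35 to 1.31. Libraries of the same number in the 2 diets correlated at -0.048 to 0.594 in cortex, 0.079 to 0.535 in hippocampus and 0.006 to 0.152 in hypothalamus. In the same order 5 of 6, 4 of 5 and 1 of 5 pairs exceeded 0.1. Of the libraries, 7 of 12, 6 of 10 and 3 of 10 correlated best with their own number. The labels give the numbers no meaning, and they were not taken as pairs, though libraries of 1 number may share structure. All counts are limited by 5 to 7 libraries per group.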
